A study of Rattus norvegicus with 6 samples.

Results

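The 10 genes described here make the lipid mediators, acetylcholine and cytokine signals for which intestinal tuft cells are known. They were taken by symbol as a list set with earlier results of these data known. All were present among the 28282 gene symbols of the count tables. They are Alox5, Alox5ap and Ltc4s of leukotriene synthesis, Ptgs1 and Hpgds of prostaglandin synthesis, Chat of acetylcholine synthesis, the cytokine gene Il25 and the receptor genes Il17rb, Il4r and Il13ra1. Each of 6 rats (male Sprague-Dawley, 6 weeks old) gave 1 library of nuclei from its ileum. The 3 CON rats had a sham laparotomy without infusion, and the 3 SAP rats had severe acute pancreatitis from 3% sodium taurocholate infused into the pancreatic duct at 0.1 mL per 100 g of body weight. All were killed at 24 h and were fasted with free water after surgery, so the SAP group is 1 time point of an acute chemical injury whose primary site is another organ. The question was in which ileal nuclei each gene was measured, and whether its level differed between SAP and CON.

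Tuft cells are rare chemosensory cells of the gut epithelium. After an activating stimulus they release IL-25, cysteinyl leukotrienes and prostaglandins, and they hold the enzyme that makes acetylcholine. IL-25 and leukotrienes act on group 2 innate lymphoid cells, which answer with IL-13. IL-13 binds a receptor made of the products of Il4r and Il13ra1 on epithelial stem cells and biases their progeny towards tuft and goblet cells. This loop is best known from infection with worms and protists.

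Of 90461 barcodes, 40970 passed, which needed 1200 or more UMIs (unique molecular identifiers, 1 per captured transcript), 500 or more genes with a UMI and a mitochondrial share of no more than 5%. Passing nuclei numbered from 6260 to 9246 per CON library and from 3189 to 7893 per SAP library, with 5549260 to 28771508 UMIs per library. SAP replicate 1 was the smallest library and had the highest median mitochondrial share, at 1.84%. The tables of CON replicate 2 and SAP replicate 1 also listed barcodes under 1000 UMIs. Nuclei fell into 20 classes, 16 named after markers and written with the ending -like and 4 left as numbered clusters, and no member was used for clustering or naming. The Paneth-like class joined 2 unlike clusters. Defensin genes and Mmp7 were among the top genes of 1, with 628 nuclei. Gfra4 and Habp2 were among those of the other, with 1386 nuclei and stem markers scoring second. Levels are in CPM, the UMIs of a gene for every 1000000 UMIs of the same nuclei and library, and errors are SD over libraries. Nuclei hold little of the cytoplasmic mRNA, and reads were not corrected for free RNA.

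The tuft-like class held 941 nuclei, 2.30% of those that passed and 2.81% of their UMIs. From 86 to 229 nuclei came from each CON library and from 63 to 349 from each SAP library. The class was named from 12 tuft markers, so their levels describe the rule and do not test it. Dclk1, a kinase gene that marks tuft cells, was at 1731 CPM inside and 37.9 CPM outside. Pou2f3, the master transcription factor of the lineage, was at 577 CPM inside and 13.2 CPM outside. Trpm5, the cation channel of taste signalling, was at 370 CPM inside (369.6) and 7.47 CPM outside.

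Alox5 encodes 5-lipoxygenase, which starts leukotriene synthesis from arachidonic acid. Its mean level over the 6 libraries was 109 CPM ± 100.1 in tuft-like nuclei and from 2.31 to 4.49 CPM in the 7 other epithelial classes. Tuft-like nuclei had more Alox5 than each other epithelial class in 6 of 6 libraries. Neutrophil-like nuclei came next at 35.6 CPM, on only 10 UMIs, and macrophage-like nuclei followed at 19.8 CPM ± 18.3. Levels of these neighbours ranged from 0 to 119.5 and from 0 to 43.1 CPM over libraries, and their order was not separated by that spread. Of the 711 UMIs of Alox5 in all passing nuclei, 35.0% lay in the tuft-like class. By library this share ran from 10.5% in CON replicate 1 to 57.7% in SAP replicate 2.

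Alox5ap encodes FLAP, the membrane protein that presents arachidonic acid to 5-lipoxygenase. Unlike Alox5 and Ltc4s, it had its highest mean outside the tuft-like class, at 656 CPM ± 820 in neutrophil-like nuclei. That class held only 116 nuclei, and its Alox5ap level ran from 0 to 1980 CPM over libraries. Tuft-like nuclei followed at 177 CPM ± 124, with a lowest library of 94.1 CPM, and no other class exceeded 22.6 CPM on average. Of the 1214 UMIs of Alox5ap, 28.2% were tuft-like, from 17.6% to 45.7% by library.

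Ltc4s encodes leukotriene C4 synthase, which joins glutathione to leukotriene A4 and so makes the parent cysteinyl leukotriene. Its level was 142.6 CPM in tuft-like nuclei and 3.47 CPM in all others in summed counts, a ratio of 41.0, next to 39.1 for Chat. Both ratios pool libraries whose tuft-like levels differed widely, with 349 of the 941 nuclei from SAP replicate 2. Over libraries its tuft-like level was 209.5 CPM ± 112, and the 19 other classes had means from 0.599 to 6.44 CPM. The tuft-like class held 54.3% of its 741 UMIs. The upstream sequences of Alox5 and Ltc4s are shown because these were the tuft-leading genes of the leukotriene branch with an entry in the RefSeq promoter table (build GRCr8), which matched 7 of the 10 members and not Alox5ap, Hpgds or Il25. Each is the 250 bases before the annotated start, 5′ to 3′ on the strand of the gene, at chr4:151251127-151251376 (minus strand) for Alox5 and chr10:35063595-35063844 (minus strand) for Ltc4s, with capitals on matches to the GC box GGGCGG, the octamer ATGCAAAT or the N4 GAS element (a palindrome with a spacer of any bases) on either strand.
Alox5: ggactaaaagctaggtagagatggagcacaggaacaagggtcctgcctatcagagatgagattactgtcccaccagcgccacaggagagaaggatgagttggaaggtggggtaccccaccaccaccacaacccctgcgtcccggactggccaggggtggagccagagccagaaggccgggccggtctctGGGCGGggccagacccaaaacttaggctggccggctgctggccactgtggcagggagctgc
Ltc4s: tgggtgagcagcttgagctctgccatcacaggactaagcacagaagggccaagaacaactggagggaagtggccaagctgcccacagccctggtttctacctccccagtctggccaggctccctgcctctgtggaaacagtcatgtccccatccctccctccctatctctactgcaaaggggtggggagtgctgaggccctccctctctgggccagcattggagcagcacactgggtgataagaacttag

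The octamer is the motif of POU factors such as Pou2f3, and the N4 GAS element is the spacing bound by STAT6, the factor downstream of Il4r. The octamer lay in 1.56% of the 33469 promoters of the table, the N4 GAS element in 6.25% and GGGCGG in 30.5%. The Alox5 window held 1 GC box and the Ltc4s window none of the 3 motifs. The octamer was in the window of 1 of the 7 members with an entry, Il4r, and the N4 GAS element in none. A match is only a match of letters, and its absence covers only these 250 bases.

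**Figure D1:**
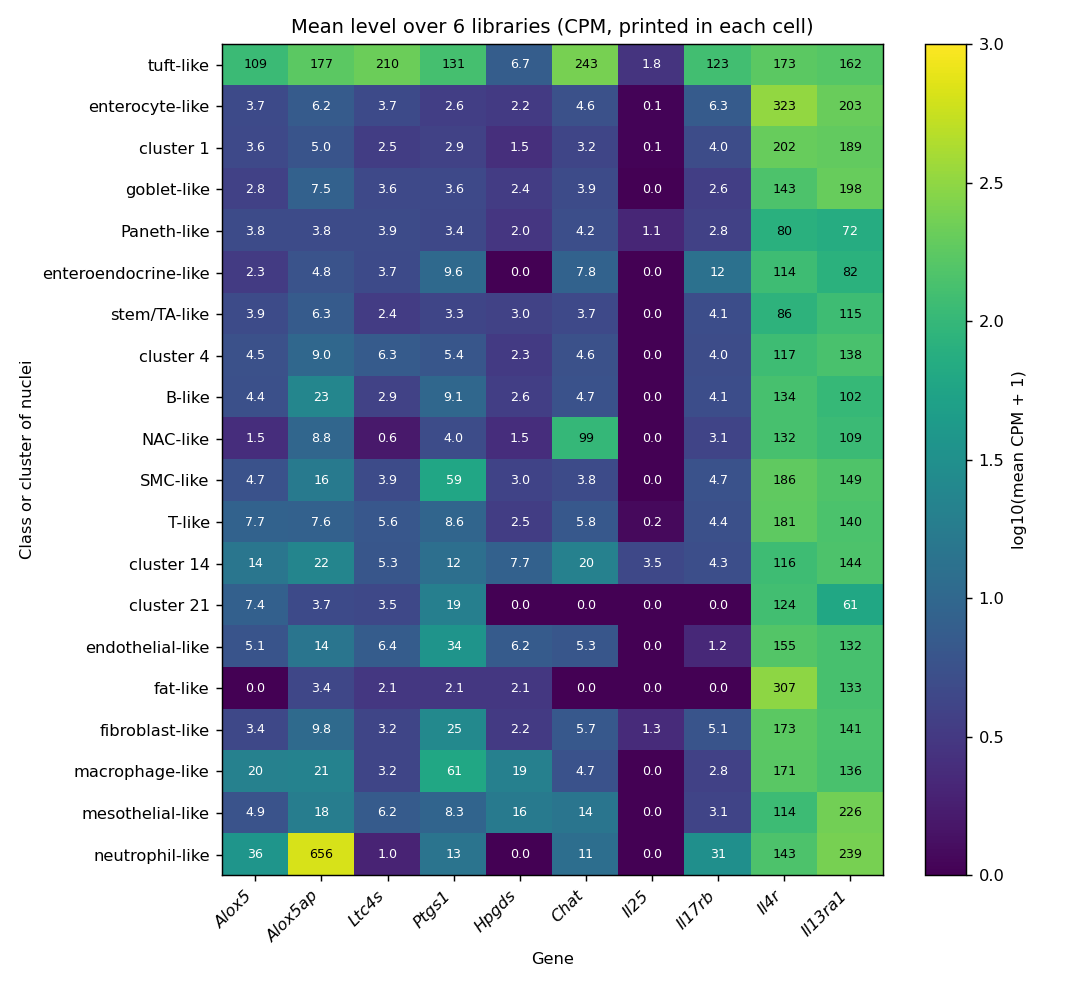
Mean level of each of the 10 genes (columns) in each of the 20 classes or clusters (rows), as CPM averaged over the 6 libraries and printed in each cell, with colour on a log10(mean CPM + 1) scale. The tuft-like row stands out for Alox5, Ltc4s, Ptgs1, Chat and Il17rb, neutrophil-like nuclei lead for Alox5ap at 656 CPM, and Il4r and Il13ra1 are spread over all rows.

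Ptgs1 encodes cyclooxygenase 1, which makes prostaglandin H2. Its mean was 131 CPM ± 39.2 in tuft-like nuclei, 60.5 CPM ± 37.7 in macrophage-like nuclei and 59.1 CPM ± 31.5 in smooth muscle (SMC-like) nuclei. The means of the last pair did not differ beyond the spread over CON and SAP libraries together. Within each CON library the macrophage-like level was the higher of the pair. Within each SAP library the SMC-like level was the higher, where macrophage-like nuclei held few UMIs of Ptgs1. Endothelial-like nuclei followed at 34.5 CPM ± 15.6. Within the epithelium the other 7 classes lay between 2.59 and 9.64 CPM. The tuft-like class held 27.2% of the 1144 UMIs, from 18.6% to 47.6% by library.

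Hpgds encodes the haematopoietic prostaglandin D synthase. It was scarce, with 332 UMIs in all, and macrophage-like nuclei had the highest mean at 19.3 CPM ± 18.6. Tuft-like nuclei, with 25 UMIs and 6.72 CPM ± 5.74, were not separated by that spread from macrophage-like nuclei, mesothelial-like nuclei (3 UMIs) or cluster 14 (7.66 CPM ± 6.99). Only 7.53% of its UMIs were tuft-like, from 0% to 40.5% by library.

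Chat encodes choline acetyltransferase, the enzyme of acetylcholine synthesis in cholinergic neurons and in tuft cells. Its mean was 243 CPM ± 198 in tuft-like nuclei and 99.3 CPM ± 58.3 in nuclei with markers of neurons and their companions (NAC-like), with the other epithelial classes between 3.23 and 7.83 CPM. Tuft-like nuclei held 544 of the 1025 UMIs (53.1%), and NAC-like nuclei 74. The partner genes of neuronal release separated these classes. Slc18a3, the vesicular acetylcholine transporter, had 11 UMIs in NAC-like and 0 in tuft-like nuclei, and Slc5a7, the choline transporter, had 59 and 2. A count of 0 allows up to 3 UMIs by counting error alone.

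Il25, the cytokine that opens the loop, was at the edge of detection. It had 15 UMIs in all passing nuclei, 4 of them in tuft-like nuclei, 4 in Paneth-like nuclei and the others scattered over 5 classes. Within tuft-like nuclei 4 of 941 had a UMI (0.425%), so no level was read from it. Il17rb encodes the receptor chain that binds IL-25, and it was far better measured, with 649 UMIs. Its mean was 123 CPM ± 61.9 in tuft-like nuclei. Enteroendocrine-like nuclei had 12.2 CPM ± 5.17, the highest of the other 7 epithelial classes, and neutrophil-like nuclei 30.6 CPM on 3 UMIs. The tuft-like class held 45.8% of the UMIs, from 34.1% to 61.5% by library.

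Il4r encodes the chain shared by the IL-4 and IL-13 receptors, and Il13ra1 its partner for IL-13. Neither was a tuft gene in these nuclei. Il4r had its highest mean in enterocyte-like nuclei, at 323 CPM ± 158, and tuft-like nuclei ranked 7 of 20 with 173 CPM, so that 4.01% of 15877 UMIs were tuft-like against 2.81% of all UMIs. The lowest mean of the 19 other classes was 80.3 CPM, in Paneth-like nuclei. Il13ra1 lay between 60.9 and 239 CPM in the 19 other classes, with enterocyte-like (203 CPM ± 16.8) and goblet-like nuclei (198 CPM ± 20.4) close together and the tuft-like class at rank 6.

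Detection per nucleus gave the same split for 6 members against stem/TA-like nuclei. After thinning every nucleus to 1200 UMIs, 22.2% of tuft-like nuclei had a Chat UMI, 16.5% Ltc4s, 14.6% Ptgs1, 14.3% Alox5ap, 12.9% Il17rb and 12.0% Alox5. Before thinning these shares were 35.4%, 28.1%, 25.5%, 24.1%, 23.9% and 18.7%, at a median of 2028 UMIs per nucleus. Stem/TA-like nuclei (stem and transit-amplifying markers, median 1599 UMIs) had thinned shares of these genes from 0.268% (Il17rb) to 0.588% (Alox5ap). The part of free RNA in these shares was not tested. Hpgds was found in 0.956% of tuft-like and 0.341% of stem/TA-like nuclei. Il13ra1 was found in 17.3% of tuft-like and 12.7% of stem/TA-like nuclei, and Il4r in 23.4% and 6.48%. Enterocyte-like nuclei had more Il4r detection than tuft-like nuclei. Their means over libraries were 22.5% in CON and 38.6% in SAP, against 12.5% and 26.1% in tuft-like nuclei.

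Few nuclei carried the whole leukotriene branch at this depth. At least 1 of Alox5, Alox5ap and Ltc4s was detected in 485 of 941 tuft-like nuclei (51.5%) and all of them in 27 (2.87%). Of the 333 tuft-like nuclei with a Chat UMI, 187 also had a UMI of that branch. At least 3 of the 6 genes Alox5, Alox5ap, Ltc4s, Ptgs1, Chat and Il17rb were detected in 22.1% of tuft-like nuclei and in 0.105% of the 40029 other nuclei, or in 9.46% and 0.0125% after thinning. These 6 are the members that stood higher in tuft-like nuclei than in each other epithelial class in 6 of 6 libraries. The contrast follows from that choice in these same data and is no separate result.

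In tuft-like nuclei, no member passed the test between SAP and CON. Counts summed per rat went into the quasi-likelihood fit of edgeR, with Benjamini-Hochberg adjustment over the 7345 genes tested. A gene was called where its adjusted p was under 0.05 and its log2 fold change was 0.5 or more in either direction. Of the 10 members, 8 had enough counts to be tested and 0 were called, where 0.0136% of all genes tested were called, namely St8sia6 alone (log2 fold change -5.75), a sialyltransferase gene named here after its value was seen. DESeq2 called 0 of 8, against 0.382% of its genes. At an unadjusted p under 0.05 by edgeR stood 1 of the 8, Il4r, against 8.6% of all genes. By DESeq2 3 of 10 members stood there, Alox5, Chat and Il4r (unadjusted p = 0.00878, 0.0271 and 0.00121). So did 504 genes in all, and their share of the genes given a p by DESeq2 was not counted. Each replicate was 1 rat, and 3 against 3 cannot give an exact permutation p under 0.1.

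Il4r was the member with the widest separation in tuft-like nuclei. Its level was 64.0, 84.2 and 143 CPM in the CON replicates and 210.3, 359 and 176 CPM in the SAP replicates. Every SAP library lay above every CON library, as for 4.47% of the genes tested, and Il4r was the only one of the 8 tested members with that pattern. The means were 97.1 ± 41.0 and 248 ± 97.0 CPM (n = 3 each), with a log2 fold change of 1.46 (SE 0.38, unadjusted p = 0.00238, adjusted p = 0.298 by edgeR). Among libraries that listed barcodes under 1000 UMIs the CON and SAP levels were 84.2 and 210.3 CPM, and among the others the means were 103 and 267 CPM. When 1 library was left out in turn the log2 fold change ran from 1.00 to 1.92 and the adjusted p by edgeR from 0.0434 (without SAP replicate 3) to 0.881 (without CON replicate 2). Without SAP replicate 3, 1.53% of all genes were called.

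The higher SAP means of Alox5 and Chat rested in part on 1 library. Alox5 was at 20.2, 67.4 and 81.9 CPM in CON and at 306, 95.8 and 81.2 CPM in SAP (log2 fold change 1.43, SE 0.65, adjusted p = 0.580 by edgeR). Chat was at 121, 135 and 217 CPM in CON and at 640.4, 173 and 172 CPM in SAP (log2 fold change 1.09, SE 0.57, adjusted p = 0.617 by edgeR). In both genes SAP replicate 1 stood far above the other 5 libraries, which overlapped. Without it the SAP means were 88.5 CPM for Alox5 and 172 CPM for Chat, and the log2 fold changes 0.67 and 0.14.

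The remaining genes of the leukotriene and prostaglandin branches overlapped between the groups. Alox5ap was at 94.3, 241 and 98.3 CPM in CON and at 401, 94.1 and 129.9 CPM in SAP. Ltc4s was at 253, 286 and 137 CPM in CON and at 373, 78.2 and 129.9 CPM in SAP, so that SAP held both its highest and its lowest library. Ptgs1 had nearly equal means, 133 ± 35.4 and 129 ± 50.7 CPM. Log2 fold changes were 0.59 (SE 0.62), -0.21 (SE 0.59) and -0.01 (SE 0.36), with adjusted p from 0.850 to 1.00 by edgeR. Without SAP replicate 1 those of Alox5ap and Ltc4s were -0.28 and -1.09. The remaining SAP levels of Ltc4s then lay below every CON level. Its unadjusted p was then under 0.05 by edgeR, as for 8.62% of all genes, and it was not called.

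Il17rb and Il13ra1 overlapped too. Il17rb was at 80.9, 135 and 116 CPM in CON and at 239, 104 and 65.0 CPM in SAP, with a log2 fold change of 0.29 (SE 0.48). Il13ra1 was at 128, 179.7 and 159 CPM in CON and at 210.3, 173 and 121 CPM in SAP, with a log2 fold change of 0.21 (SE 0.32). Hpgds and Il25 did not pass the filter on low counts. Hpgds had 0, 0 and 4 UMIs in CON and 1, 15 and 5 in SAP, and the 0 counts allow up to 10.1 and 16.8 CPM where the SAP libraries had 9.56 to 13.2 CPM. Every SAP level lay above the highest CON level of 5.96 CPM, a pattern seen in 4.47% of the genes that passed that filter. The lowest SAP level was 1 UMI, so these counts do not settle a difference at this depth. Without the filter the unadjusted p of Hpgds was under 0.05 by edgeR, as for 7.12% of all genes, and it was not called. Il25 had 1, 1 and 0 UMIs in CON and 0, 2 and 0 in SAP.

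SAP replicate 1 stood apart in tuft-like nuclei in other ways as well. It had 63 of these nuclei, and the summed level of the 12 tuft markers was 12789 CPM, against 4269 to 7286 CPM in the other 5 libraries. The summed level of 6 neutrophil markers in its tuft-like nuclei was 229 CPM, against 5.62 to 11.6 CPM in the others. One of those 6 markers was at 0. Their part in the levels of Alox5, Alox5ap and Chat was not tested.

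**Figure D2:**
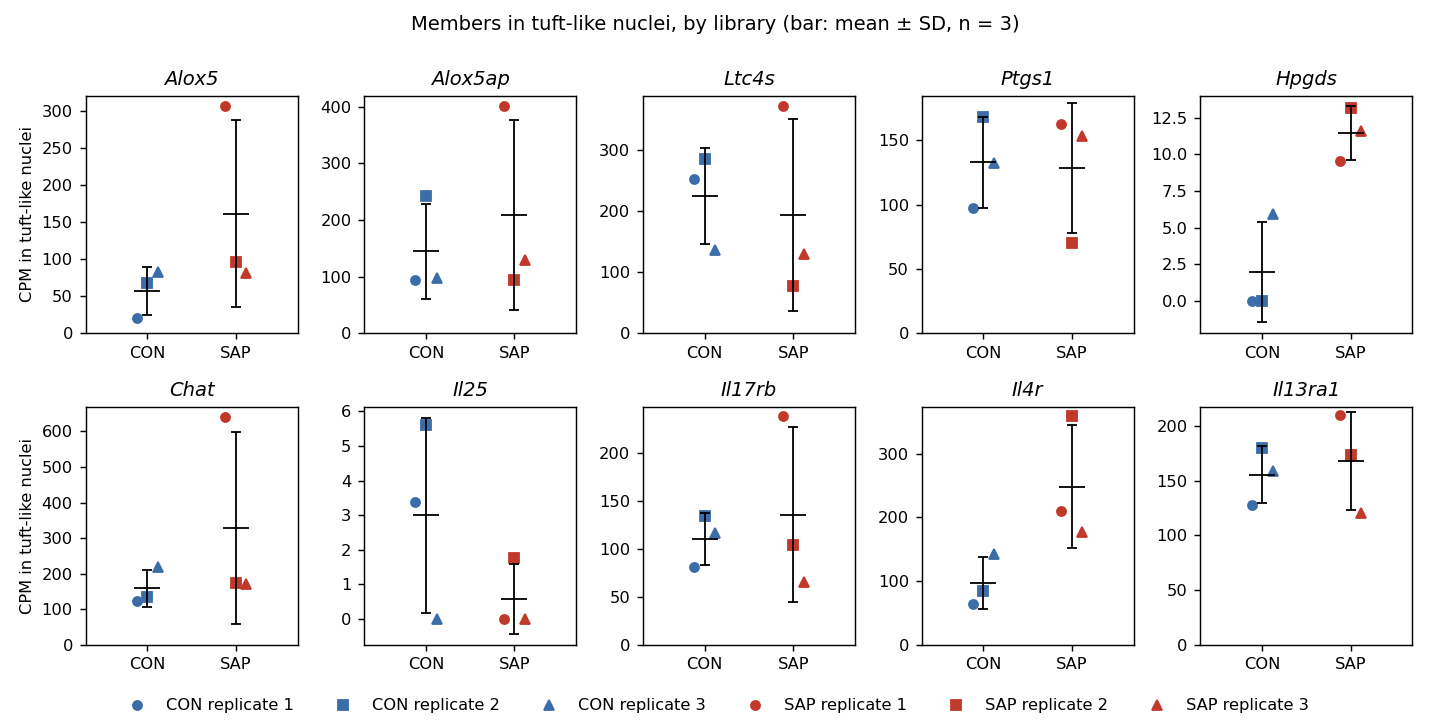
Level of each of the 10 genes in tuft-like nuclei (CPM) in the 3 CON (blue) and 3 SAP (red) libraries, with 1 symbol per replicate and black bars for mean ± SD. Il4r separates the groups, with SAP from 176 to 359 CPM and CON from 64.0 to 143 CPM, and SAP replicate 1 (red circle) is the highest library for Alox5, Alox5ap, Ltc4s, Chat, Il17rb and Il13ra1.

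Summed over all nuclei, the level of a gene moves with the level in each class and with the share of each class, and these cannot be told apart in the sum alone. Of the 9 members tested (all but Il25) 0 were called by edgeR, as were 0.0% of 19187 genes. At an unadjusted p under 0.05 stood 4 of the 9, Alox5, Alox5ap, Il17rb and Il4r, against 8.43% of all genes. With the replicate number as a block they were 3 of 9, without Il17rb (unadjusted p = 0.105 by edgeR), against 12.4% of all genes. Every SAP library lay above every CON library for 3 of them, Alox5, Alox5ap and Il4r, against 4.53% of genes. DESeq2 called 2 of 9, Alox5ap (adjusted p = 0.0357) and Il4r (adjusted p = 0.0370), where it called 1.24% of its genes.

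Alox5ap over all nuclei was at 5.39, 8.24 and 8.36 CPM in CON and at 41.6, 16.1 and 16.4 CPM in SAP. The log2 fold change was 1.86 (SE 0.52, adjusted p = 0.545 by edgeR), and it was 1.12 without SAP replicate 1. Neutrophil-like nuclei held 6.28% of its UMIs in CON and 24.6% in SAP, and they supplied 46.3% of the difference between the group means, against 17.8% from tuft-like nuclei. Without SAP replicate 1 these parts were 20.01% and 24.6%, so that their order turned. In SAP replicate 1 alone, neutrophil-like nuclei gave 20.9 of the 41.6 CPM. The share of nuclei that was neutrophil-like was 0.156% ± 0.102 in CON and 0.512% ± 0.391 in SAP (adjusted p = 0.677 by limma over 20 classes).

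Alox5ap was tested in 6 classes, and in 4 of them, all classes where it is scarce, every SAP library lay above every CON library, as in 4.76% of all tests over the classes. In cluster 1, an unnamed epithelial cluster closest to enterocyte-like nuclei, it was at 1.18, 3.27 and 2.62 CPM in CON and at 9.14, 7.59 and 5.96 CPM in SAP (log2 fold change 1.77, SE 0.52, adjusted p = 0.304 by edgeR). Goblet-like, enterocyte-like and stem/TA-like nuclei likewise had no overlap between the groups, with means of 3.84 and 11.2, 3.27 and 9.09, and 3.62 and 8.96 CPM. These rest on 3 to 27 UMIs per library in cluster 1 and enterocyte-like nuclei. The neutrophil markers summed to 145 CPM in cluster 1 of SAP replicate 1 and to 51.7 CPM in that of SAP replicate 3, against 3.81 to 11.03 CPM in the other 4 libraries, and their part in these levels was not tested.

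For Chat, Il17rb and Alox5 over all nuclei, the part of the difference that lay in tuft-like nuclei varied with the libraries used. Chat was at 1.88, 5.09 and 14.1 CPM in CON and at 16.2, 23.6 and 9.21 CPM in SAP, and tuft-like nuclei gave 63.7% of the difference between the means. Il17rb was at 2.19, 3.42 and 6.54 CPM in CON and at 9.01, 18.5 and 4.22 CPM in SAP, and tuft-like nuclei gave 34.1%. For Alox5, at 1.98, 2.89 and 9.47 CPM in CON and 10.1, 12.2 and 9.73 CPM in SAP, they gave 59.8%. When 1 library was left out in turn these parts ran from 49.8% to 76.4% for Chat, from 26.3% to 39.3% for Il17rb and from 47.5% to 79.4% for Alox5. SAP replicate 2, with the most tuft-like nuclei, had the highest level of all 3 genes. In CON and SAP the means were 7.13 ± 1.33 and 8.91 ± 2.92 CPM for Ltc4s and 10.2 ± 6.54 and 13.0 ± 3.15 CPM for Ptgs1. Those of Hpgds were 3.29 ± 0.939 and 2.83 ± 1.83 CPM. Each of these genes differed by less than its SAP SD, and Ltc4s by more than its CON SD.

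Tuft-like nuclei made up 0.930%, 1.42% and 2.72% of the CON libraries and 1.98%, 5.85% and 1.58% of the SAP libraries. The means were 1.69% ± 0.926 and 3.14% ± 2.36, and the groups overlapped (limma on logit shares, adjusted p = 0.766 over 20 classes, exact permutation p = 0.5). Without SAP replicate 2 the SAP mean was 1.78%.

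**Figure D3:**
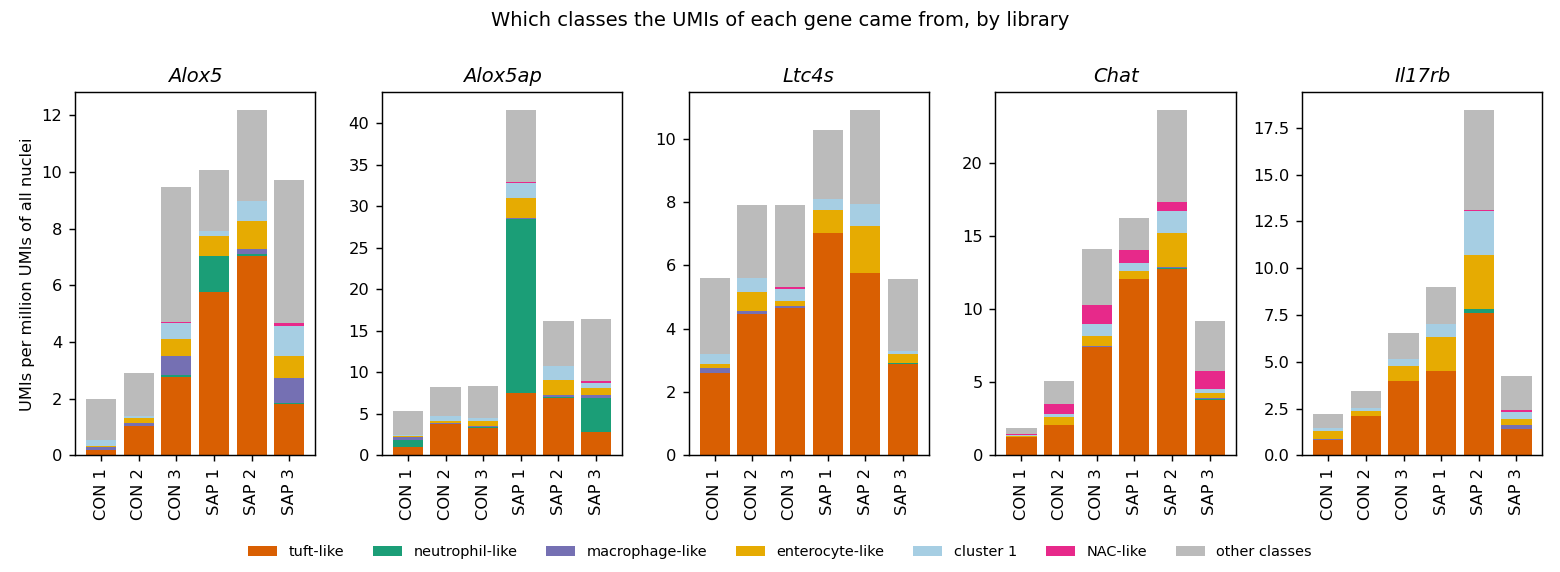
Level of 5 genes over all nuclei of each library (CPM), stacked by the class the UMIs came from (bars start at 0). Tuft-like nuclei (orange) supply from 46.6% to 68.4% of Ltc4s and from 41.3% to 74.4% of Chat by library, and neutrophil-like nuclei (green) supply 20.9 of the 41.6 CPM of Alox5ap in SAP replicate 1.

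Il4r showed the most regular pattern of the members, with a positive log2 fold change in all 15 classes in which it was tested. Over all nuclei it was at 52.7, 69.9 and 134 CPM in CON and at 163, 399 and 198 CPM in SAP, with a log2 fold change of 1.68 (SE 0.43, adjusted p = 0.545 by edgeR). Of the difference between these means, enterocyte-like nuclei gave 33.8%, cluster 1 gave 23.7% and tuft-like nuclei gave 5.44%. The fold changes ran from 0.70 in SMC-like nuclei to 1.99 in cluster 4, an unnamed epithelial cluster. Groups did not overlap in 10 of the 15 classes, and the unadjusted p was under 0.05 in 14, all but SMC-like nuclei. Over all 53 tests of members in 16 classes edgeR called 0, where it called 0.00739% of all tests. Of these 53, 15 had no overlap with SAP higher, against 4.76%, and 20 had an unadjusted p under 0.05, against 7.55%. DESeq2 called 4 of 82, against 0.307%, and all 4 were Il4r, in T-like, fibroblast-like and goblet-like nuclei and in cluster 1. The classes came from the same 6 rats and share their libraries, so they are not separate replicates of the contrast.

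Fibroblast-like nuclei, which are outside the epithelium, gave the lowest unadjusted p. Il4r was at 59.1, 55.7 and 95.9 CPM in CON and at 258, 317 and 254 CPM in SAP there (log2 fold change 1.97, SE 0.32, unadjusted p = 0.000106, adjusted p = 0.363 by edgeR). In cluster 1 it was at 71.3, 95.3 and 146 CPM in CON and at 213, 403 and 286 CPM in SAP (log2 fold change 1.62, SE 0.30, adjusted p = 0.217 by edgeR). In enterocyte-like nuclei, which had the most Il4r, the levels were 156, 154 and 351 CPM in CON and 282, 547 and 446 CPM in SAP, and they overlapped. In stem/TA-like nuclei, on which IL-13 is known to act, they were 22.0, 44.0 and 50.1 CPM in CON and 64.9, 259 and 76.3 CPM in SAP. SAP replicate 2 was the highest library in all 15 classes, and CON replicate 3 the highest CON library in 13.

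Markers of enterocytes moved along with Il4r across classes. The summed level of 6 enterocyte markers had a higher SAP than CON mean in all 15 classes, and it was highest in SAP replicate 2 in 14 of them. In tuft-like nuclei the sum was 424.5, 343 and 1151 CPM in CON and 1013, 1783 and 1072 CPM in SAP, and the mean of each of the 6 markers was higher in SAP. In fibroblast-like nuclei it was 465, 279 and 1219 CPM in CON and 973, 1630.5 and 943 CPM in SAP. In both of these classes CON replicate 3 had the highest CON sum of enterocyte markers, within the SAP range. Its Il4r was also the highest of the CON libraries there and lay below every SAP library. In enterocyte-like nuclei its Il4r lay above that of SAP replicate 1. These classes are examples, and Il4r was free of overlap in only 10 of the 15 classes. Il4r and the marker sum were highest in the same library in 14 of the 15. Enterocyte-like nuclei made up 7.22%, 7.91% and 9.01% of the CON libraries and 17.2%, 26.9% and 9.36% of the SAP libraries. Every SAP library lay above every CON library, and how many classes had that pattern was not counted. The shares of stem/TA-like, goblet-like and Paneth-like nuclei were lower in every SAP library than in every CON library. The enterocyte-like means were 8.05% ± 0.900 and 17.9% ± 8.81 (adjusted p = 0.667 by limma, exact permutation p = 0.1, the lowest that 3 against 3 can give). The part of enterocyte RNA in the Il4r levels of other classes was not tested.

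The upstream sequence of Il4r is shown because it was the member with the most regular difference and the one with an octamer. It covers the 250 bases before the annotated start at chr1:189545525-189545774 (plus strand, GRCr8, from RefSeq), with capitals on the octamer ATGCAAAT, which begins 122 bases before the start, and on its GC boxes GGGCGG.
Il4r: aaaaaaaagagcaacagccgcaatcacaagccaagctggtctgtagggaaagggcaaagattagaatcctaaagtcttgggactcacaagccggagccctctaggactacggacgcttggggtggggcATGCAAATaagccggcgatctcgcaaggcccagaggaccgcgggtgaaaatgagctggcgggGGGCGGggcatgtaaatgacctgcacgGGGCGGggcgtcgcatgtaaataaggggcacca

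**Figure D4:**
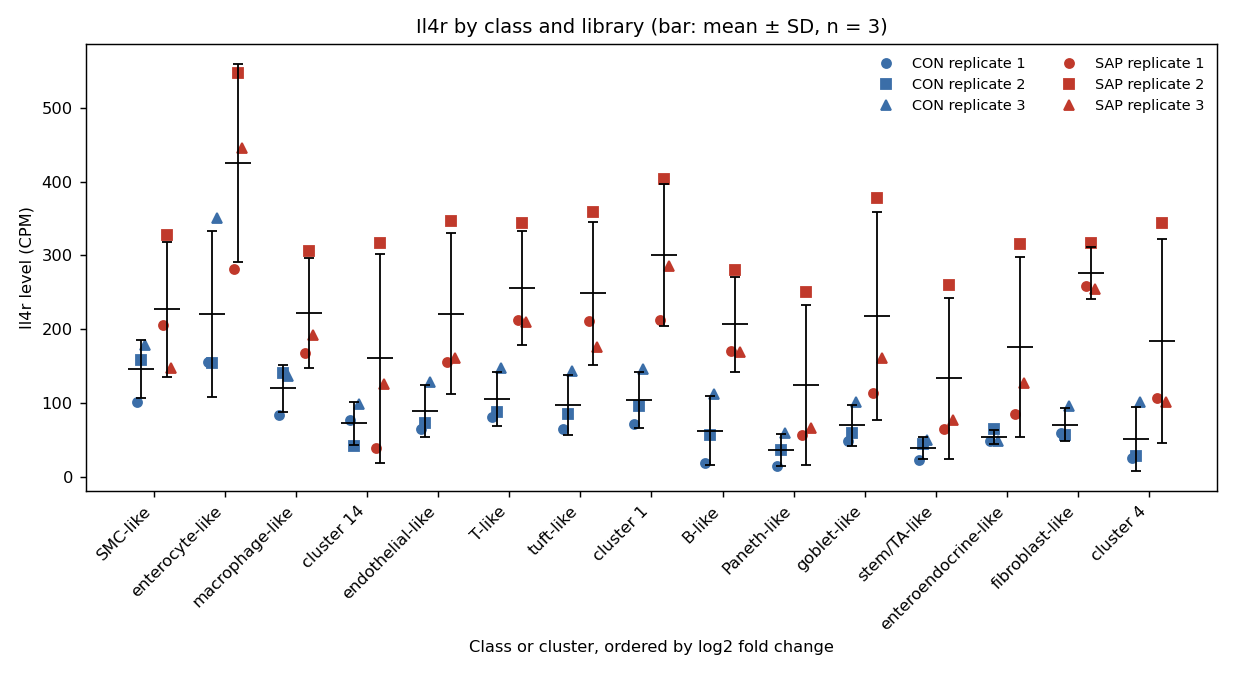
Il4r level (CPM) by library in the 15 classes in which it was tested, ordered by log2 fold change, with CON in blue, SAP in red and black bars for mean ± SD of 3 libraries. SAP means lie above CON means in every class shown, and SAP replicate 2 (red square) is the highest point in all 15.

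Il13ra1, its receptor partner, was tested in 16 classes and had a positive log2 fold change in 15, with smaller values than Il4r. The difference between both genes was not tested. It had log2 fold changes from -0.01 in B-like nuclei to 0.54 in macrophage-like nuclei, an unadjusted p of at least 0.173 and overlapping groups in every class. Over all nuclei it was at 103, 147 and 168 CPM in CON and at 149.9, 186 and 144 CPM in SAP (log2 fold change 0.25, SE 0.27). The ligands of both receptors were nearly absent, with 3 UMIs of Il4 and 3 of Il13 in all nuclei, and none of either in tuft-like nuclei.

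Ptgs1 was tested in 6 classes, and its SAP level was higher in 3 of them and lower in 3. In macrophage-like nuclei it was at 72.7, 77.7 and 116 CPM in CON and at 33.4, 7.29 and 56.3 CPM in SAP (log2 fold change -1.21, SE 0.54, unadjusted p = 0.0467, adjusted p = 1.00 by edgeR). The first 2 of these SAP levels rest on 1 UMI each. In SMC-like nuclei it was at 24.9, 32.5 and 60.5 CPM in CON and at 112, 50.1 and 75.2 CPM in SAP (log2 fold change 0.96, SE 0.43, unadjusted p = 0.0488, adjusted p = 0.437 by edgeR). T-like nuclei had a low level, 6.17 ± 1.57 CPM in CON and 10.97 ± 1.60 CPM in SAP. Every SAP library there lay above every CON library, as in 4.76% of all tests over the classes.

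The lists of these pathways, drawn up by function and including the members, held no gene called by edgeR in tuft-like nuclei or over all nuclei. Of 12 genes of leukotriene synthesis 10 were tested in tuft-like nuclei, of which 6 had a higher and 4 a lower SAP level (median log2 fold change 0.26) and 2 an unadjusted p under 0.05. Those 2 were Dpep1 and Ggt1, which trim leukotriene C4 to its later forms, with means of 79.7 and 195 CPM and of 44.3 and 78.9 CPM in CON and SAP. Both were highest in enterocyte-like nuclei, at 639 and 367 CPM in summed counts. Over all genes tested in tuft-like nuclei 3811 of 7345 had a higher SAP level, and the median log2 fold change was 0.02.

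Of 12 prostaglandin synthesis genes 6 were tested, with 3 higher and 3 lower and a median of 0.00. Tbxas1, thromboxane synthase, was itself highest in tuft-like nuclei, at 439 CPM in summed counts, with means of 494 ± 28.6 CPM in CON and 542 ± 308 CPM in SAP. Ptgs2, the inducible cyclooxygenase gene, had 45 of its 200 UMIs in tuft-like nuclei and was not tested there. None of the leukotriene or prostaglandin receptor genes was tested in tuft-like nuclei. Ltb4r, a leukotriene B4 receptor, had 52 of its 94 UMIs in neutrophil-like nuclei.

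Of 12 acetylcholine genes 4 were tested, with 3 higher and a median of 0.36. Chrm3, a muscarinic receptor gene, was at 661 ± 64.9 CPM in CON and 455 ± 132 CPM in SAP (adjusted p = 0.691 by edgeR). Of 14 type 2 receptor and signalling genes 9 were tested, with 7 higher and a median of 0.28, and Il4r was the 1 with an unadjusted p under 0.05. None of the 8 type 2 ligand genes was tested in tuft-like nuclei. Il33 was highest in cluster 21 and SMC-like nuclei, at 135 and 118 CPM in summed counts, and Tslp had 0 UMIs in tuft-like nuclei and 62 in all.

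Of 10 tuft sensing genes 5 were tested, with 4 higher and 1 lower in SAP. The lower 1 was Plcb2, the phospholipase of taste signalling, at 232, 618 and 368 CPM in CON and at 249, 71.2 and 167 CPM in SAP (log2 fold change -1.30, SE 0.49, unadjusted p = 0.0239, adjusted p = 0.502 by edgeR). Gnat3, the gustducin gene, had means of 296 and 406 CPM. Of 12 tuft identity genes 11 were tested, with 10 higher, a median of 0.52 and none with an unadjusted p under 0.05, and these lists share genes with the markers that named the class. Over all nuclei 12 of 12 identity genes were higher in SAP, against 10008 of the 19187 genes tested. Their median was 1.03, against 0.02 over all genes. At an unadjusted p under 0.05 stood 3 of the 12, against 8.43% of all genes. Levels over all nuclei move with the share of each class as well as with the level inside it. The tuft-like share was highest in SAP replicate 2 and overlapped between the groups. Vil1, 1 of the 12, had only 1824 of its 52089 UMIs in tuft-like nuclei. It was highest in enterocyte-like nuclei, at 978 CPM in summed counts. The part of class shares in these levels was not tested. The 12 genes come from the same 6 libraries and are not separate results.

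The genes whose pattern over the 20 classes was most like that of a member were found by Pearson's r of log2(CPM + 1) in summed counts, over 17738 genes with at least 100 UMIs. They are a description, since all classes share the same 6 libraries. Nearest to Alox5 were Tbxas1 (r = 0.940), Pik3r5 (0.879) and Pla2g4a (0.874), the last being the phospholipase that frees arachidonic acid. Ltc4s was nearest to the tuft markers Trpm5 (0.886) and Sh2d7 (0.880) and to Ccnj (0.875). Il17rb was nearest to Trpm5 (0.869), LOC103692984 (0.832) and Sh2d6 (0.828).

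For the members shared with other lineages the neighbours differed. Alox5ap was nearest to LOC102552590 (0.897), to Camp (0.894), which encodes an antimicrobial peptide of neutrophil granules, and to Ptpn6 (0.876). Chat was nearest to Adgrb2 (0.870), Dscaml1 (0.865) and Frrs1l (0.855), and Ptgs1 to Itga9 (0.894), Gpr137b (0.8003) and Pld2 (0.8002). Hpgds was nearest to Fcgr3a (0.790), an Fc receptor gene, Stac2 (0.786) and LOC102553011 (0.781). Il4r was nearest to Tnip1 (0.944), Spag9 (0.919) and Skil (0.914), and Il13ra1 to Fosl2 (0.854), Nfil3 (0.835) and Alas1 (0.830).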

How the data were processed

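Nuclei of rat ileum were measured with DNBelab C libraries on DNBSEQ-T7. With dnbc4tools the authors made tables of UMI counts (genes by barcodes), and the deposited counts are whole numbers without normalization. The labels name mRatBN7.2 and Seurat 4.3.0. The members and gene lists were chosen with earlier results of these data known, so their counts beside the shares of all genes are descriptions.

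Nuclei passing the quality limits were log-normalized, and 2000 variable genes (members, eicosanoid, acetylcholine, type 2 and mitochondrial genes left out) gave 30 principal components, integrated with a numpy version of Harmony and clustered with leidenalg 0.10.2 on a shared-neighbour graph at a resolution of 0.8. The graph and variable gene method were set after earlier clusterings had joined macrophages with B cells or B with T cells. A cluster was named where its markers scored at least 0.5 (mean log2 ratio), led the next class by 0.8 and numbered at least 3. Where stem and TA, or endothelial and lymphatic endothelial, were the top pair without that lead, the cluster took a joint name. The first of the pair then had to lead the class after the pair by 0.8. The stem/TA-like and endothelial-like classes were named in this way. Scrublet (scanpy 1.11.5) marked 0 doublets by itself, so nuclei were kept and the top 5% left out as an alternative.

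Counts were summed per library and class with at least 10 nuclei in every library and tested with edgeR 4.0.16 (filterByExpr, TMM, robust), shares with limma 3.58.1, and DESeq2 1.42.0 was an alternative, under R 4.3.3. The edgeR code was tested on simulated data. Named are the 10 members, up to 3 list genes with the lowest p in tuft-like nuclei and the 3 nearest genes per member, and list genes named for their class level were chosen after their values were seen. Floors are 3 counts and cover counting error only. Passing nuclei held a median of 1516 to 1889.5 UMIs per library, so rare transcripts are counted in few nuclei. Alternatives were other size factors, no filter, 1% mitochondrial UMIs, other definitions of the tuft class, a barcode listing covariate, a replicate block and leaving out each library. The makeup and the tuft-like means without single libraries were added after seeing the data. Over all nuclei the deviations of CON and SAP libraries with the same replicate number correlated at 0.665, 0.242 and 0.350. Other pairs correlated at no more than 0.0503. The labels state no shared litter or day. All main tests used the group only and were not paired, and the replicate number entered only in the replicate block.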

Additional observations from a re-analysis of the deposited data

Results flagged for a closer look

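Ptgs1 moved in opposite directions in 2 classes, with every SAP library above every CON library in T-like nuclei and every SAP library below every CON library in macrophage-like nuclei. The first pattern was seen in 4.76% of all tests over the classes, and the share of the second was not counted. The difference between these classes, as log2(CPM + 1) of T-like less macrophage-like nuclei within a rat, was -3.64 on average in CON and -1.09 in SAP, a change of 2.54. The gene and both classes were picked for these opposite directions, so the difference was not tested. In macrophage-like nuclei SAP replicates 1 and 2 held 1 UMI each. Groups of 3 libraries are too small for the check of libraries that stand apart.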

How the results depend on the processing

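No member was called by edgeR in tuft-like nuclei, over all nuclei or over the tested classes, and the counts of calls were 0 under most alternatives. Without a filter on low counts 1 member was called in tuft-like nuclei and 8 tests over the classes, all of them Il4r, where 0.643% of all genes and 0.539% of all tests were called. DESeq2 called 2 members over all nuclei and 4 tests over the classes. Leaving out 1 library in turn gave 0 to 1 calls in tuft-like nuclei and 0 to 1 over the classes, the 1 being Il4r in tuft-like nuclei without SAP replicate 3, and 0 over all nuclei. The replicate block, the barcode listing covariate, other size factors (RLE), 1% mitochondrial UMIs, removal of the top doublet scores and, for tuft-like nuclei, resolutions of 0.4 and 1.2 or a gate of 2 tuft markers gave 0 calls each. With the replicate block Il4r had a log2 fold change of 1.38 in tuft-like nuclei and 1.55 over all nuclei, and the block changed no call of a member. Over the classes it raised the calls from 10 to 77 of 135379 tests. In tuft-like nuclei same-numbered libraries correlated at 0.213, 0.0927 and 0.0569. CON replicate 3 and SAP replicate 2 correlated at 0.163 there, so same-numbered pairs did not stand apart from the others.

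Il4r kept a positive log2 fold change in every tested class under every alternative run, with a lowest value of 0.33. Leaving out 1 library in turn gave log2 fold changes in tuft-like nuclei from -0.28 to 1.10 for Alox5ap, -1.09 to 0.22 for Ltc4s, -0.25 to 0.35 for Ptgs1, -0.29 to 0.69 for Il17rb and -0.0055 to 0.48 for Il13ra1, and over all nuclei from -0.61 to 0.019 for Hpgds. Directions turned for these members. Alox5ap was at -0.28 without SAP replicate 1 and 0.00 (-0.0039) at 1% mitochondrial UMIs, Il17rb at -0.29 and -0.12, and Il13ra1 at -0.0055 and -0.0061. Ltc4s was at 0.22 without SAP replicate 2, 0.046 without SAP replicate 3 and 0.033 with the gate. Ptgs1 was at 0.020 with the listing covariate, 0.16 and 0.014 without CON replicates 2 and 3, 0.35 without SAP replicate 2 and 0.12 with the gate. Hpgds over all nuclei was at 0.019 without SAP replicate 1. The cause was not tested. Of 485 log2 fold changes under alternatives, 15 turned and 15 became calls. Over all genes of tuft-like nuclei edgeR made 1 call, against 24 by DESeq2, 143 without a filter, 7 without CON replicate 3 and 109 without SAP replicate 3. Over all nuclei it made 0 calls, against 193 by DESeq2, 1 without CON replicate 3 and 1 without SAP replicate 2. The difference in tuft-like share stayed positive and uncalled, from 0.088 to 2.22 percentage points when 1 library was left out. Depth limits Hpgds and Il25, with 25 and 4 UMIs in tuft-like nuclei.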
